A study of Zea mays with 58 samples.

Results

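Glutamine synthetase is encoded in the maize inbred line B73 by the 6 gene models described here, 1 assigned to the plastid (Zm00001d026501) and 5 to the cytosol (Zm00001d028260, Zm00001d048050, Zm00001d017958, Zm00001d033747 and Zm00001d051804). They were taken by a list of identifiers, without use of their measured values, and are 6 of the 46335 features in the count table. The assignment to plastid or cytosol came with that list and was taken as given. Transcripts were counted in roots of 10-day-old B73 seedlings with a 3′ mRNA method that reads each transcript near its polyadenylated end and marks every captured molecule with a unique molecular identifier (UMI). All seedlings had lost their endosperm and had spent the 2 days before the transfer without nitrogen, and each replicate pooled 3 of them. Roots called N received a medium of 20 mM KNO3 plus 20 mM NH4NO3, in which 10% of the nitrogen was the isotope 15N, and roots called noN were moved to 20 mM KCl. Both were sampled at 9 times from 5 to 120 min, and time 0 was sampled as noN. The media differ in chloride and total salt as well as in nitrogen, so an N effect (N against noN at equal time) cannot be told apart from these.

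Glutamine synthetase joins ammonium to glutamate to form glutamine and is the step by which most inorganic nitrogen enters amino acids. Nitrate reaches it after reduction to ammonium, the last part of which takes place in plastids, where the plastid isoform works. That isoform is best known for recapturing photorespiratory ammonium in leaves. In roots the cytosolic isoforms are known for assimilating absorbed ammonium and for making glutamine for export.

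The 58 libraries held 1978039 to 3790442 counts, with a median of 2617921, in 19 groups of 3 libraries apart from noN at 120 min with 4. The 21 noN libraries of 0 to 45 min differ in makeup from all others. Their counts lay on longer genes: the log2 exon length, averaged over the counts of a library, was 11.01 to 11.114, against 10.967 to 10.999 in noN at 60 to 120 min, 10.924 to 10.997 in N at 5 to 45 min and 10.978 to 10.995 in N at 60 to 120 min. Every N effect at 5 to 45 min, and every change in noN from 45 to 60 min, therefore compares libraries of different makeup and the difference in makeup and the change in a gene cannot be told apart. The N effects at 60 to 120 min and the course within N roots compare none of the means of those 21 libraries. The scaling and the estimate of spread per gene still come from all 58 libraries. Markers of root cell types were not analysed here, since gene names could not be tied to the identifiers.

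All 6 genes had counts in every library and all 6 passed the filter on low counts. The plastid gene Zm00001d026501 lies on AGPv4 chromosome 10, 147240629 to 147249381, on the minus strand, with 5988 bases of exon. Of the cytosolic genes, Zm00001d028260 (chromosome 1, 28169233 to 28171917, minus strand, 1494 bases of exon) and Zm00001d033747 (chromosome 1, 272704775 to 272707957, minus strand, 1760 bases) share a chromosome. Zm00001d017958 lies on chromosome 5, 210867625 to 210871221, minus strand, with 1961 bases of exon. Zm00001d048050 lies on chromosome 9, 148903155 to 148910943, plus strand, with 1533 bases. Zm00001d051804 lies on chromosome 4, 170036696 to 170039992, minus strand, with 1594 bases. No other annotated feature overlaps any of them. Reads that aligned to several places were not counted, so the level of any member that shares its 3′ end with a near-identical copy is uncertain, and this was not tested.

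At time 0 the levels of the members differed widely. Per kilobase of exon, in CPM (counts scaled by TMM to a common library size), Zm00001d017958 stood at 173 ± 10.3 CPM per kb (SD, n = 3), Zm00001d028260 at 126.5 ± 29.9, Zm00001d051804 at 124 ± 36.2 and Zm00001d033747 at 23.6 ± 9.36. Zm00001d048050 stood at 6.33 ± 1.81 CPM per kb and the plastid gene at 1.87 ± 0.40, the lowest on this scale. In N at 120 min the order per kilobase was another, with Zm00001d028260 at 584 ± 23.3 CPM per kb, Zm00001d017958 at 149 ± 20.96, Zm00001d051804 at 93.6 ± 17.5, Zm00001d048050 at 56.7 ± 8.10, the plastid gene at 38.6 ± 1.402 and Zm00001d033747 at 11.3 ± 0.35. A 3′ method gives about the same number of reads for a long and a short transcript, so a level per kilobase understates the long plastid gene model. Without division by length the plastid gene was not the lowest at time 0, at 11.2 ± 2.39 CPM against 9.71 ± 2.77 for Zm00001d048050. In N at 120 min it then came after Zm00001d028260 (872 ± 34.8 CPM) and Zm00001d017958 (292 ± 41.1), at 231 ± 8.40 CPM, and before Zm00001d051804 (149 ± 27.8), Zm00001d048050 (86.97 ± 12.4) and Zm00001d033747 (19.8 ± 0.62). Values below are CPM without division by length unless stated.

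Averaged over 60, 90 and 120 min, the plastid gene and the cytosolic genes Zm00001d028260 and Zm00001d048050 were higher in N than in noN roots, while the cytosolic genes Zm00001d017958 and Zm00001d033747 were lower. Zm00001d051804 did not pass the test. In this comparison 3 of 6 members were thus called higher and 2 lower (edgeR quasi-likelihood test, adjusted p of 0.05 over 18872 tested genes), where 31.8% of all tested genes were called, 14.9% higher and 16.9% lower. The median log2 fold change of the 6 members was 0.53, and that of all tested genes was -0.0015. In bulk roots, fewer cells of a type and less RNA per cell cannot be told apart.

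At single times the count of members called ran from 2 at 5 min, 10 min and 15 min to 5 at 90 and 120 min. For 5, 10 and 15 min, in that order, the share called among all tested genes was 3.60%, 11.7% and 27.2%. For 20, 30 and 45 min it was 30.2%, 20.1% and 23.6%, and for 60, 90 and 120 min 4.09%, 17.1% and 13.9%. At 20 min 4 members were called, and at 30, 45 and 60 min 3 each. Of the 54 tests of a member at a time, 29 passed. These tests repeat the same members over the times, and those at 5 to 45 min compare libraries of different makeup. A share of all tested genes pooled over the times is not given here. At 60 min DESeq2 called 5 members, and so did a fit of the 60 min libraries alone. The share of all tested genes called in these fits is not given here, and the 4.09% is that of the main fit. At 5 min both calls rest on single libraries, as given with the genes.

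**Figure D1:**
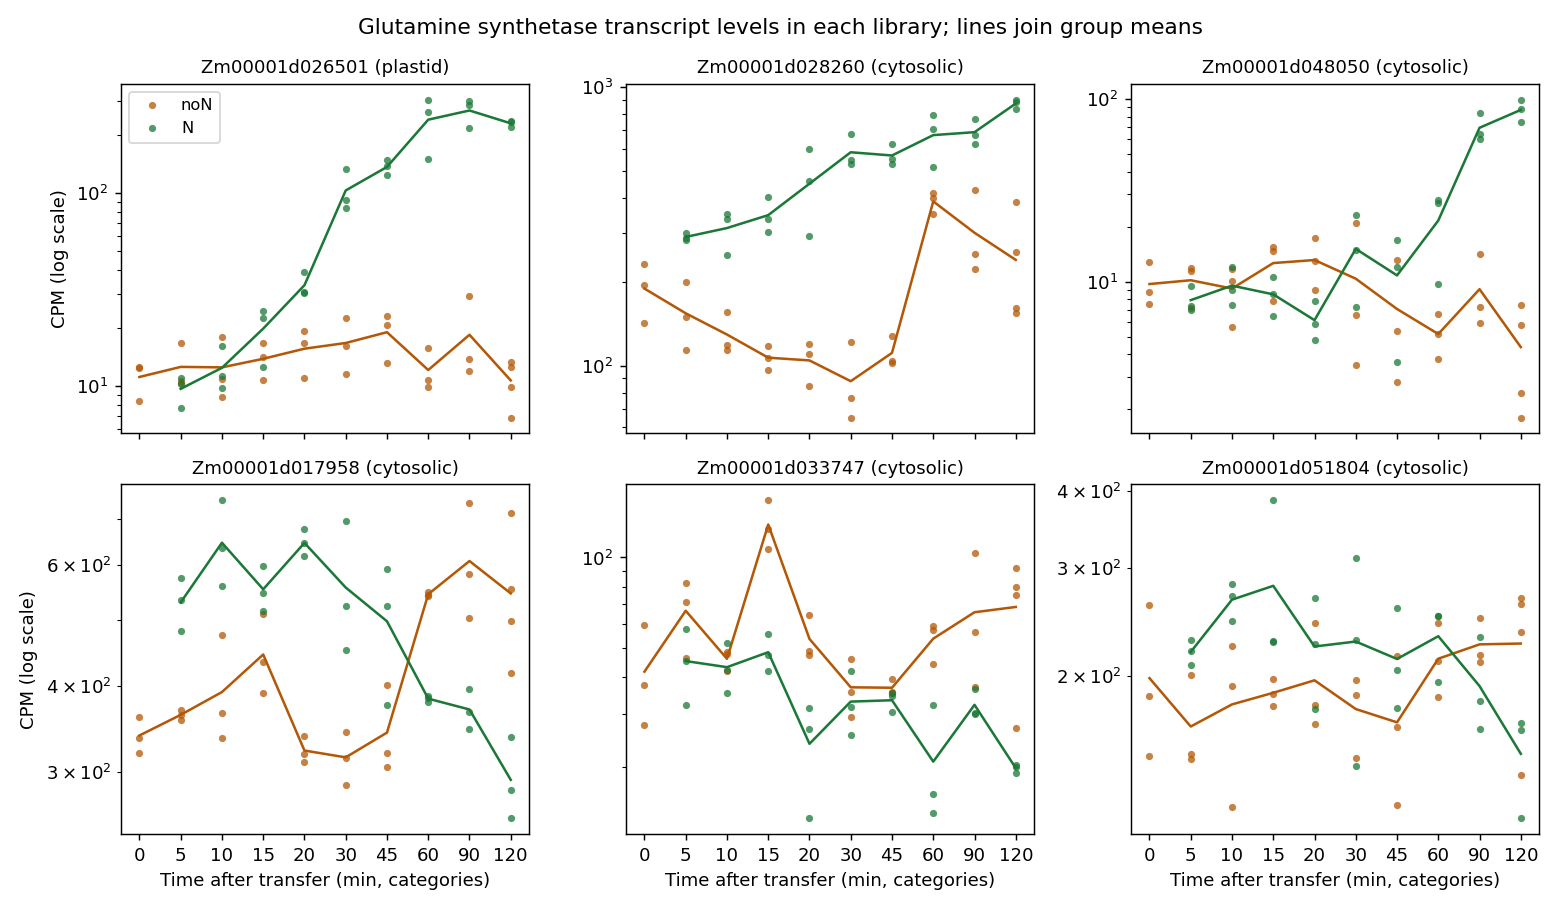
CPM (log scale, a different range in each panel) of the 6 glutamine synthetase genes in each of the 58 libraries against time after transfer in min, drawn as evenly spaced categories. Points are libraries, brown for noN and green for N, and lines join group means. The plastid gene climbs in N from a mean of 9.69 CPM at 5 min to 269 at 90 min, while its 31 noN libraries stay at 6.88 to 29.5.

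The plastid gene rose 27.8-fold in N roots between 5 and 90 min and stayed low without nitrogen. The 31 noN libraries lay between 6.88 and 29.5 CPM, with a median of 12.65. In N roots the 3 libraries held 7.75, 10.3 and 11.04 CPM at 5 min, then 11.3, 9.79 and 16.3 at 10 min and 12.65, 22.5 and 24.6 at 15 min. Up to that time the N and noN libraries of equal time overlapped. By 20 min the N libraries had reached 30.6, 30.6 and 39.1 CPM. They held 92.6, 134 and 84.5 CPM at 30 min, then 138.5, 125 and 148 at 45 min. From 20 min on every N library was above every noN library of the series. At 60 min the N libraries held 266, 307 and 151 CPM, which became 301, 218 and 288 at 90 min, then 235, 236 and 221 at 120 min. The ranges of these last 3 times overlap, and the means of 241 ± 80.8, 269 ± 44.6 and 231 ± 8.40 CPM (SD, n = 3 each) are the 3 highest of the 19 groups.

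Averaged over 60 to 120 min the plastid gene was 18.4-fold higher in N, a log2 difference of 4.20 (SE 0.17, edgeR adjusted p = 1.404e-24) that ranked 9 by p among the 18872 genes tested. The N effect at 120 min alone was 4.41 (SE 0.28, edgeR adjusted p = 7.738e-17), or 21.3-fold. Within N roots, the level passed the test against 5 min first at 20 min, where the log2 difference was 1.79 (SE 0.33, edgeR adjusted p = 3.784e-04). At 15 min the difference of 1.07 (SE 0.34) had not passed it (edgeR adjusted p = 0.2261). The rise reached 4.80 (SE 0.32, edgeR adjusted p = 4.447e-16) at 90 min. It was the only member called at 20 min against 5 min, where 2.08% of all tested genes were called. From 45 to 60 min, where the noN libraries change in makeup, the N roots gained 0.81 (SE 0.25, edgeR adjusted p = 0.4319), short of the threshold. Against noN, the effect of 1.08 at 20 min (SE 0.30, edgeR adjusted p = 0.005923) had become 2.64 at 30 min and 2.84 at 45 min. Each of these calls held when any 1 library of its contrast was left out, and the late average then lay between 4.12 and 4.366.

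In noN roots no change of the plastid gene passed the test, neither over 0 to 45 min (edgeR adjusted p = 0.3919) nor over 60 to 120 min (edgeR adjusted p = 0.2658). The largest noN value, 29.5 CPM, was in replicate 1 at 90 min, whose other replicates held 13.9 and 12.05. The noN means of 19.1 ± 5.20 CPM at 45 min and 11.2 ± 2.39 at time 0 differed by 0.78 (SE 0.33, edgeR adjusted p = 0.1065).

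**Figure D2:**
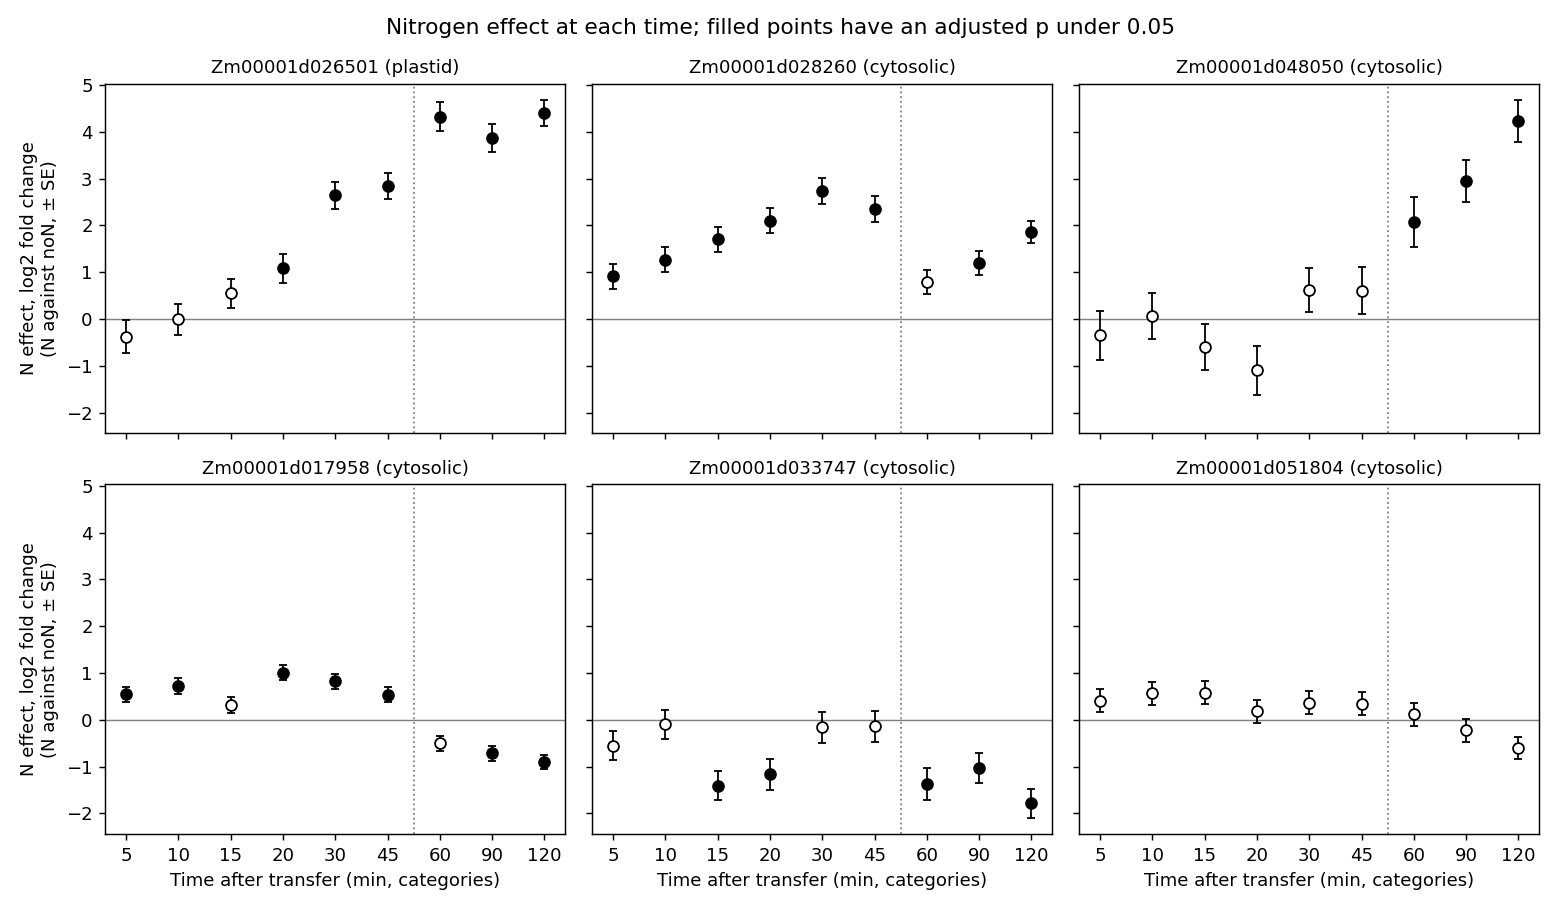
Log2 fold change of N against noN at each time (min, evenly spaced categories) for each gene, with bars of 1 SE and filled points where the edgeR adjusted p is under 0.05. The dotted line parts the times at which noN libraries differ in makeup (left) from those at which they do not (right), where the plastid gene is at 4.32, 3.87 and 4.41 and Zm00001d051804 has no filled point.

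Zm00001d028260, a cytosolic form, had the highest level per kilobase of the family in N roots late in the course and was higher in N than in noN libraries at every time, with no overlap. In N it rose from libraries of 298, 283 and 288 CPM at 5 min to 902, 881 and 834 at 120 min. The means passed through 312 ± 53.6 CPM (SD, n = 3) at 10 min and 347 ± 50.4 at 15 min to 449.8 ± 153 at 20 min. They then stood at 583 ± 81.6 CPM at 30 min and 672 ± 144 at 60 min. The gain over 5 min reached a log2 fold change of 1.59 at 120 min (SE 0.26, edgeR adjusted p = 1.320e-05), or 3.01-fold. It first passed the test at 30 min, with 1.01 (SE 0.26, edgeR adjusted p = 0.008126). That call, and the one at 45 min, each rested on 1 library: without replicate 2 of N at 30 min the value was 0.89 (edgeR adjusted p = 0.05848), and without replicate 2 of N at 45 min it was 0.90 (edgeR adjusted p = 0.05033). The plastid gene and Zm00001d028260 were the 2 members called at 30 min and at 45 min against 5 min, where 6.30% and 6.99% of all tested genes were called.

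Without nitrogen Zm00001d028260 declined at first and then stood higher. The libraries held 194, 231 and 142 CPM at time 0, then 122, 65.1 and 76.8 at 30 min, and 102, 128 and 104 at 45 min. At 60 min they held 401, 415 and 349 CPM, at 90 min 426, 222 and 251, and at 120 min 387, 256, 154 and 161. None of the noN libraries of 60 min overlapped with those of 45 min, and by 120 min the range again reached down into that of time 0. The course over 0 to 45 min passed the test (edgeR adjusted p = 0.01574), but not without replicate 2 of time 0 (edgeR adjusted p = 0.1007). At 30 min the gene had fallen by 1.102 on the log2 scale from time 0 (SE 0.27, edgeR adjusted p = 0.006983). That call, the 1 among the members at that time against 7.10% of all tested genes, was lost without replicate 2 of time 0 (-0.93, edgeR adjusted p = 0.06465) or of noN at 30 min (-0.93, edgeR adjusted p = 0.08127). At 20 min the difference of -0.85 (SE 0.26, edgeR adjusted p = 0.05731) did not pass, and 0 members were called where 3.44% of all tested genes were (1 at an unadjusted p of 0.05, 1 in DESeq2, 0 in limma). It passed without replicate 3 of time 0 (-1.02, edgeR adjusted p = 0.04674). At 45 min the gene was again the 1 member called, against 13.6% of all tested genes, at -0.77 (SE 0.26, edgeR adjusted p = 0.04259). That call was lost without replicate 1 or 2 of time 0 or replicate 1 or 3 of noN at 45 min (-0.74 to -0.60, adjusted p of 0.08828 to 0.2205), with the length trend of each library removed and in limma. The step from 45 to 60 min was 1.81 (SE 0.27, edgeR adjusted p = 2.765e-06), or 3.50-fold, between libraries of different makeup.

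The N effect on Zm00001d028260 was largest where the noN level was lowest and smallest where it was highest. The noN level is itself part of the effect, and these 2 times lie on either side of the change in noN makeup. It was 2.73 (SE 0.27, edgeR adjusted p = 2.158e-10) at 30 min, with a noN mean of 87.9 ± 29.9 CPM, and 0.79 (SE 0.26, edgeR adjusted p = 0.06715) at 60 min, with a noN mean of 388.5 ± 34.8. The latter passed with 0.95 (edgeR adjusted p = 0.03947) without replicate 3 of N at 60 min, and also in DESeq2 (0.79, DESeq2 adjusted p = 0.04955). At 120 min it was 1.87 (SE 0.24, edgeR adjusted p = 1.721e-07), and averaged over 60 to 120 min it was 1.29 (SE 0.15, edgeR adjusted p = 1.957e-09), or 2.44-fold. The earliest effect, 0.91 at 5 min (SE 0.26, edgeR adjusted p = 0.03712), was lost on leaving out any 1 of the 6 libraries of that time apart from replicate 1 of noN, with values of 0.73 to 0.93 and adjusted p of 0.07492 to 0.1753.

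Zm00001d048050, also cytosolic, was low in both media until 45 min and rose late in N roots. Up to 45 min its 18 N libraries held 3.66 to 23.2 CPM with a median of 8.18, and its 21 noN libraries held 2.84 to 21.02 with a median of 10.1. In N roots it then held 28.1, 27.0 and 9.67 CPM at 60 min. It reached 84.2, 60.1 and 64.1 CPM at 90 min, with 74.3, 99.1 and 87.5 at 120 min. The noN libraries held 5.14, 6.62 and 3.76 CPM at 60 min and 14.1, 5.96 and 7.23 at 90 min. The 4 noN libraries of 120 min held 1.81, 7.46, 5.83 and 2.46 CPM. At each of these 3 times the N libraries were all above the noN libraries. The noN values rest on small counts, 4 to 32 per library at these times. At 20 min all N libraries, at 4.81, 5.84 and 7.81 CPM, were below the noN libraries, an effect of -1.10 (SE 0.52, edgeR adjusted p = 0.1033) that passed only in the fit of that time alone (-1.13, edgeR adjusted p = 0.03828).

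The N effect on Zm00001d048050 was 2.94 at 90 min (SE 0.45, edgeR adjusted p = 5.383e-06) and 4.23 at 120 min (SE 0.44, edgeR adjusted p = 6.740e-10), or 18.8-fold. Averaged over 60 to 120 min it was 3.08 (SE 0.27, edgeR adjusted p = 1.976e-12), or 8.46-fold. Within N roots the gain over 5 min was 3.13 at 90 min (SE 0.46, edgeR adjusted p = 1.647e-06) and 3.45 at 120 min (SE 0.46, edgeR adjusted p = 2.461e-07). The values at 60 min were less firm. The effect of 2.07 at 60 min (SE 0.53, edgeR adjusted p = 0.01399) was lost without replicate 1 or 2 of N or replicate 1 or 3 of noN at that time, with values of 1.84 to 2.07 and adjusted p of 0.0627 to 0.08894. At 30 min the effect of 0.62 (SE 0.48, edgeR adjusted p = 0.3789) became 1.62 (edgeR adjusted p = 0.0382) without replicate 2 of noN, which held 21.02 CPM against 6.59 and 3.52 in the others.

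Zm00001d017958, the cytosolic gene with the highest mean level per kilobase at time 0, was called higher in N at each early time apart from 15 min. It was lower in N late. In N roots the 18 libraries of 5 to 45 min held 376 to 746.5 CPM with a median of 568, and the 9 of 60 to 120 min held 257 to 396.5 with a median of 366.5. In noN roots the order was the other way, with 287 to 510.3 CPM and a median of 344 in the 21 libraries of 0 to 45 min, and 418 to 739.7 with a median of 546 in the 10 of 60 to 120 min. The N libraries of 60 to 120 min all lay below the noN libraries of the same times. In N at 120 min the 3 libraries held 337, 257 and 282.5 CPM, and in noN at 120 min the 4 libraries held 715, 498, 554 and 418.

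The late decrease in N was called within N roots, where Zm00001d017958 fell by 0.86 on the log2 scale from 5 to 120 min (SE 0.16, edgeR adjusted p = 1.376e-04). Against noN it was lower by an average of -0.71 over 60 to 120 min (SE 0.09, edgeR adjusted p = 6.382e-08), or 1.63-fold, and by -0.90 at 120 min (SE 0.16, edgeR adjusted p = 5.176e-05). At 60 min the effect of -0.51 (SE 0.16, edgeR adjusted p = 0.06613) did not pass the test in edgeR, although its ranges did not overlap, and it passed in DESeq2 (-0.51, DESeq2 adjusted p = 0.04259). In noN roots the step from 45 to 60 min was 0.67 (SE 0.16, edgeR adjusted p = 0.002335), from libraries of 320, 402 and 305 CPM to libraries of 542, 543 and 549. That step was 0.33 and did not pass in limma, run on the authors' quantile normalized values (limma adjusted p = 0.07017). Zm00001d017958 and Zm00001d028260 were the 2 members called in that step, where 22.5% of all tested genes were called, and in N roots 0 members were called in it (3 at an unadjusted p of 0.05, 0 in DESeq2), against 0.0265% of all tested genes.

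The early N effect on Zm00001d017958 was strongest at 20 min, at 1.01 (SE 0.16, edgeR adjusted p = 1.160e-05), when the N libraries held 646, 618 and 677 CPM and the noN libraries 318, 339 and 310.0. At 45 min the effect of 0.54 (SE 0.16, edgeR adjusted p = 0.01303) was lost without replicate 1 or 2 of N or replicate 1 or 3 of noN at that time (0.39 to 0.50, adjusted p of 0.05277 to 0.1205), and it was 0.08 in limma on the quantile normalized values (limma adjusted p = 0.7262). At 15 min the effect of 0.32 (SE 0.16, edgeR adjusted p = 0.1406) did not pass in any fit that was run. Every N library of 15 min, at 515.5 to 599.1 CPM, was still above every noN library, at 391.5 to 510.3. Among the 9 times the ranges of this gene overlapped only at 45 min. The effect of 0.54 at 5 min (SE 0.16, edgeR adjusted p = 0.04789) was lost on leaving out any 1 of the 6 libraries of that time (0.48 to 0.61, adjusted p of 0.05531 to 0.1861).

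**Figure D3:**
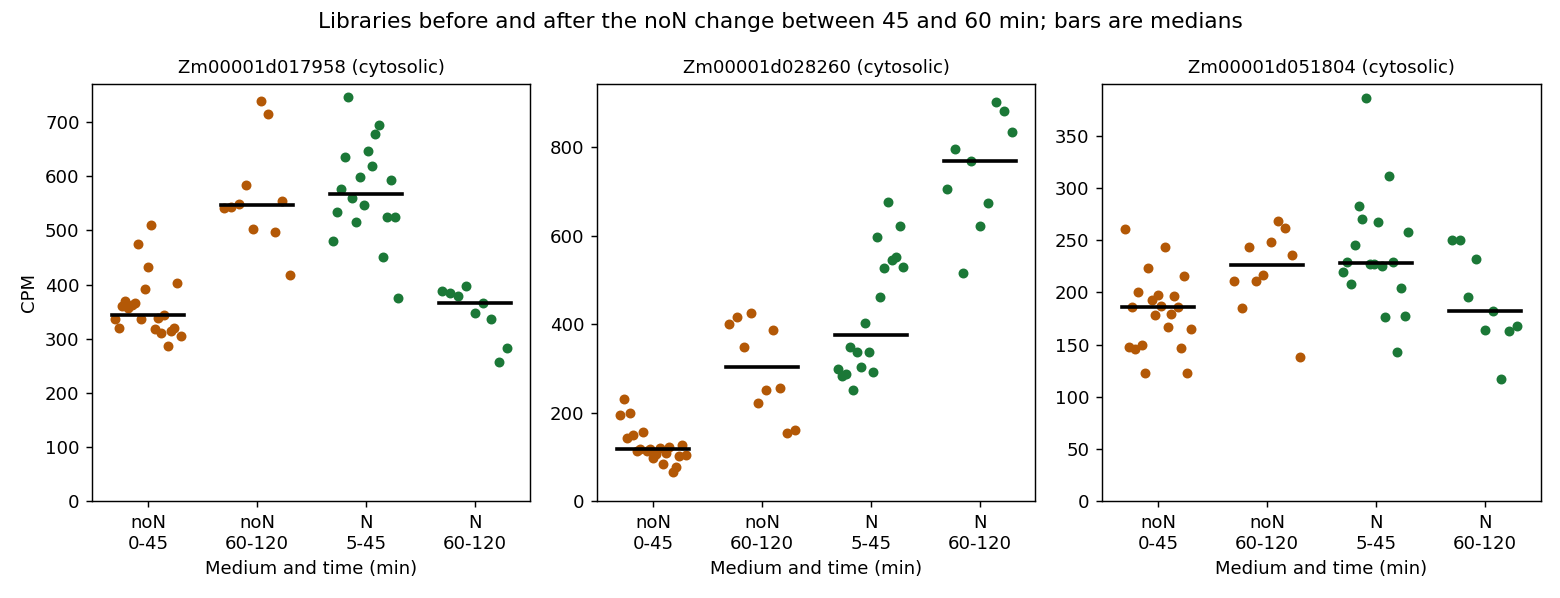
CPM of 3 cytosolic genes in each library, grouped by medium and by time before or after the noN libraries change in makeup between 45 and 60 min, with bars at the median. The median of Zm00001d017958 is 344 and 546 CPM in noN and 568 and 366.5 in N, that of Zm00001d028260 is 118 and 303 in noN and 375 and 769 in N, and Zm00001d051804 overlaps throughout.

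Zm00001d033747, a cytosolic form, was lower in N late and had a brief maximum in noN roots at 15 min. Its noN libraries held 27.6, 37.5 and 59.7 CPM at time 0, 48.3, 47.5 and 41.98 at 10 min. At 15 min they held 155, 107 and 124 CPM, and 5 min later 64.3, 48.8 and 47.4. The 3 libraries of 15 min were above every other library of the series, noN and N. Against time 0 the gene had risen by 1.63 on the log2 scale at 15 min (SE 0.31, edgeR adjusted p = 3.684e-04), or 3.08-fold, a comparison among the 21 noN libraries alone. Zm00001d028260 was lower there, at -0.82 (SE 0.26, edgeR adjusted p = 0.0236), a call lost without replicate 1 or 2 of time 0 or replicate 2 or 3 of noN at 15 min (-0.82 to -0.65, adjusted p of 0.05509 to 0.139). The pair were 2 of 6 members, against 18.5% of all tested genes. DESeq2 and limma each called 3 there, adding Zm00001d017958 (0.42, DESeq2 adjusted p = 0.04897, and 0.44, limma adjusted p = 0.01721). Over 0 to 45 min the noN course of Zm00001d033747 was called (edgeR adjusted p = 2.828e-05), as was that of Zm00001d028260. These were 2 of 6 members, against 18.2% of all tested genes. The N libraries of 15 min held 47.4, 41.9 and 55.6 CPM of Zm00001d033747, and the N effect there was -1.41 (SE 0.31, edgeR adjusted p = 7.027e-04). At 20 min it was -1.16 (SE 0.33, edgeR adjusted p = 0.007018), and without replicate 2 of N, the lowest at 13.5 CPM, it was -0.88 (edgeR adjusted p = 0.06719).

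From 60 min on every N library of Zm00001d033747 was below every noN library of equal time. At 120 min the N libraries held 20.0, 19.2 and 20.3 CPM and the noN libraries 27.1, 92.1, 74.7 and 79.6. The N effect was -1.79 at 120 min (SE 0.32, edgeR adjusted p = 8.602e-05), or 3.45-fold lower, and -1.40 averaged over 60 to 120 min (SE 0.19, edgeR adjusted p = 1.144e-07), or 2.63-fold lower. At 90 min the effect of -1.03 (SE 0.32, edgeR adjusted p = 0.01934) leaned on replicate 2 of noN, the highest at 104 CPM, without which it was -0.54 (edgeR adjusted p = 0.293). It was also lost without replicate 2 of N, at -0.98 (edgeR adjusted p = 0.06356), or replicate 3 of N, at -0.99 (edgeR adjusted p = 0.07498). At 60 min the effect of -1.38 (SE 0.34, edgeR adjusted p = 0.01118) was lost without replicate 1 or 2 of N or replicate 3 of noN (-1.30 to -1.16, adjusted p of 0.05146 to 0.1031). Within N roots it was lower at 120 than at 5 min by -1.19 (SE 0.34, edgeR adjusted p = 0.008295), a call lost without replicate 2 of N at 5 min (-0.97, edgeR adjusted p = 0.05859).

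Zm00001d051804, the remaining cytosolic form, had 58 libraries between 117 and 386 CPM, and its N effect was called at 0 of the 9 times (3 times at an unadjusted p of 0.05, 0 in DESeq2, 1 in limma). At 5 min the N libraries held 219.6, 229 and 208 CPM and the noN libraries 146, 200.5 and 149, and here, at 10 min and at 15 min the N libraries were above the noN libraries. The effect at 15 min, 0.58 (SE 0.25, edgeR adjusted p = 0.07528), passed without replicate 3 of N (0.71, edgeR adjusted p = 0.04961). At 120 min the N libraries held 117, 163 and 167 CPM and the noN libraries 268, 261, 235 and 138, which overlap. The effect at 120 min, -0.60 (SE 0.23, edgeR adjusted p = 0.07991), passed without replicate 4 of noN (-0.77, edgeR adjusted p = 0.02218). It also passed in limma on the quantile normalized values (-0.83, limma adjusted p = 0.01248), which leave out that same library. Averaged over 60 to 120 min it was -0.23, with a 95% interval of -0.52 to 0.05 (edgeR adjusted p = 0.2024).

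Averaged over 5 to 45 min, 4 members were called higher in N and 1 lower, where 60.9% of all tested genes were called, 29.7% higher and 31.2% lower, in libraries that differ in makeup. The 4 were Zm00001d028260 at 1.84 (SE 0.11), the plastid gene at 1.12 (SE 0.13), Zm00001d017958 at 0.66 (SE 0.07) and Zm00001d051804 at 0.41 (SE 0.10), with edgeR adjusted p of at most 5.787e-04. The call for Zm00001d051804 was absent from limma on the quantile normalized values (0.17, limma adjusted p = 0.1262). Zm00001d033747 was lower at -0.59 (SE 0.13, edgeR adjusted p = 1.677e-04), but its N and noN ranges overlapped at 5, 10, 30 and 45 min. Only at 15 and 20 min did they lie apart. Zm00001d048050 at -0.13 (SE 0.21, edgeR adjusted p = 0.6083) was not called. With the gene length trend of each library removed, these averages were 1.77, 1.25, 0.64, 0.34, -0.63 and -0.20, with the same 5 calls.

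Over all 9 times the joint test called all 6 members, where 61.6% of all tested genes were called. The weakest was Zm00001d051804 (edgeR adjusted p = 0.01791), which did not pass in limma on the quantile normalized values (limma adjusted p = 0.05156). The N effect changed with time in 5 members, against 39.7% of all tested genes. Both tests span times at which the libraries differ in makeup. The exception, Zm00001d051804 (edgeR adjusted p = 0.05097), passed in DESeq2 (DESeq2 adjusted p = 0.03547) and in 14 of 55 fits that left out 1 library. Those libraries were replicates 2 and 3 of N at 15 min, 1 and 3 of N at 20 min, 1 and 3 of N at 30 min, 2 of N at 45 min and 1 of N at 90 min, and, in noN, replicate 2 of both 5 and 10 min, replicate 1 of 20 min, replicates 1 and 2 of 45 min and replicate 4 of 120 min, with adjusted p of 0.01292 to 0.04883. Within N roots, against 5 min, 5 members were called at 60 min (13.8% of all tested genes), 4 at 90 min (21.4%) and 5 at 120 min (23.6%). The direction of each was that of the late N effect, which uses the same N libraries of those times and is thus not independent. In limma on the quantile normalized values 4 were called at 60 min, without Zm00001d048050 (1.22, limma adjusted p = 0.07529). There 3 were called at 90 min, without Zm00001d017958 (-0.32, limma adjusted p = 0.08578). With no filter on low counts Zm00001d017958 was not called at 60 min (-0.45, edgeR adjusted p = 0.09194). The count at 60 min fell to between 2 and 4 on leaving out 1 library of that comparison. Zm00001d017958, at -0.47 (edgeR adjusted p = 0.04735), was lost without replicate 2 or 3 of N at 5 min or any replicate of N at 60 min (-0.47 to -0.40, adjusted p of 0.09443 to 0.164). Zm00001d048050, at 1.45 (edgeR adjusted p = 0.03638), was lost without any replicate of N at 5 min or replicate 1 or 2 of N at 60 min (1.23 to 1.60, adjusted p of 0.05987 to 0.163). Zm00001d033747, at -1.13 (edgeR adjusted p = 0.01935), was lost without replicate 2 of N at 5 min or replicate 1 or 2 of N at 60 min (-0.98 to -0.91, adjusted p of 0.1062 to 0.1376). At 90 min Zm00001d017958, at -0.52 (edgeR adjusted p = 0.01787), was lost without replicate 3 of N at 5 min or replicate 2 or 3 of N at 90 min (-0.51 to -0.45, adjusted p of 0.05473 to 0.09397). Over the whole course within N roots 5 members were called, against 39.6% of all tested genes, and the exception there was also Zm00001d051804 (edgeR adjusted p = 0.09618), which passed without replicate 3 of N at 30 min (edgeR adjusted p = 0.04502). In noN roots over 60 to 120 min 0 members were called in edgeR (2 at an unadjusted p of 0.05, 0 in DESeq2 and 0 in limma), against 2.47% of all tested genes, and Zm00001d028260 passed there without replicate 1 of noN at 120 min (edgeR adjusted p = 0.02329).

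The makeup of the glutamine synthetase counts moved from one cytosolic gene to another. At time 0 the 6 genes together held 789 ± 44.4 CPM (SD, n = 3), of which Zm00001d017958 gave 43.1% ± 3.46, Zm00001d051804 24.9% ± 5.83, Zm00001d028260 24.02% ± 6.05 and the plastid gene 1.42% ± 0.29. In N at 120 min the sum was 1651 ± 36.6 CPM, with 52.8% ± 0.97 from Zm00001d028260, 17.7% ± 2.25 from Zm00001d017958, 13.98% ± 0.27 from the plastid gene and 5.27% ± 0.80 from Zm00001d048050. In noN at 120 min the sum was 1095 ± 251 CPM (n = 4), and the shares were 50.1% ± 4.13 from Zm00001d017958, 21.3% ± 5.23 from Zm00001d028260 and 0.9752% ± 0.15 from the plastid gene. Zm00001d048050 gave 1.24% ± 0.39 at time 0 and 0.414% ± 0.24 in noN at 120 min. The noN sum had gone from 684 ± 44.4 CPM at 45 min to 1217 ± 8.72 at 60 min, and both this step and the comparison with time 0 set libraries of different makeup side by side. The shares are of counts without division by length. Per kilobase the plastid gene gave 0.409% at time 0 and 4.13% in N at 120 min. These sums and shares are descriptions and carry no test.

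**Figure D4:**
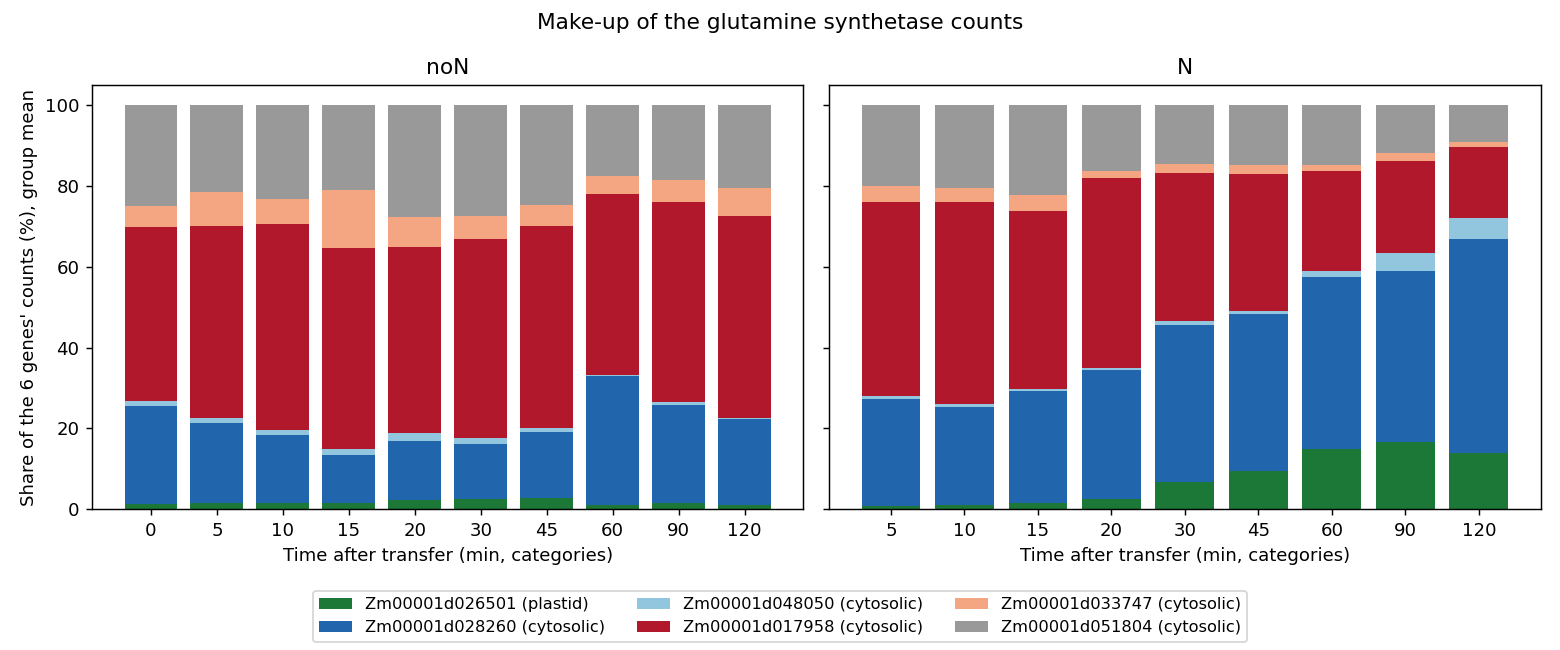
Share (%) of each gene in the summed CPM of the 6 glutamine synthetase genes, as group means against time after transfer in min (evenly spaced categories), with noN on the left and N on the right. In N the share of Zm00001d028260 grows from 26.3% at 5 min to 52.8% at 120 min and that of the plastid gene from 0.878% to 13.98%, while Zm00001d017958 shrinks from 48.1% to 17.7%.

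Across the 19 group means, the members fell into courses that were alike to different degrees. The plastid gene was closest among the members to Zm00001d028260 (Pearson r = 0.76) and Zm00001d048050 (r = 0.76) and ran opposite to Zm00001d033747 (r = -0.69), and Zm00001d017958 and Zm00001d051804 correlated at 0.80. These group means share the libraries of all genes in them, and no test was made. They also include the early noN groups, whose libraries differ in makeup from all others. The part of that difference in the likeness among members, or to the genes named below, was not tested. Among all 18872 tested genes, those most like the plastid gene on the scale of log2 CPM were Zm00001d018206 (r = 0.99) and Zm00001d024633 (r = 0.99), and 68 genes had an r over 0.9. Most like Zm00001d028260 were Zm00001d017095 (r = 0.97) and Zm00001d010675 (r = 0.95), with 66 genes over 0.9, and most like Zm00001d017958 were Zm00001d052321 (r = 0.94) and Zm00001d040190 (r = 0.94), with 25. The closest to Zm00001d048050 were Zm00001d042007 (r = 0.91) and Zm00001d007955 (r = 0.90), both under 6 CPM in every group. The closest to Zm00001d033747 were Zm00001d049179 and Zm00001d010033 (r = 0.90 each), and those closest to Zm00001d051804 were Zm00001d034771 (r = 0.87) and Zm00001d010395 (r = 0.86).

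In the authors' deposited table of network weights, 3 of the 6 members are listed as targets, namely the plastid gene, Zm00001d017958 and Zm00001d048050, and 0 as regulators, among 2294 targets and 196 regulators in the table. The regulator with the highest weight in the authors' deposited table was Zm00001d010617 both for the plastid gene, at 1.94, and for Zm00001d017958, at 4.53. For Zm00001d048050 it was Zm00001d024732, at 0.287 in the authors' deposited table, close to the 0.281 of the next. Of all targets, 14.6% had a lower top weight than Zm00001d048050, 80.25% a lower one than the plastid gene and 93.55% a lower one than Zm00001d017958 in the authors' deposited table. The sources used here do not say how these weights were made, and the table was deposited with the same series.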

How the data were processed

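The table of counts that the authors deposited gives whole numbers for each gene in 58 root libraries of single 75-base reads. The submitters' processing notes name STAR 2.7.6a, featureCounts 2.0.1, fastp 0.21.0 and UMI-tools 1.1.1. Per the file headers, sense-strand reads were counted on release 37 of the AGPv4 annotation, without the option for reads with several alignments. The quantile normalized table that the authors deposited, a score in whole numbers, covers 18616 genes and 57 libraries and leaves out replicate 4 of noN at 120 min. The deposited network weight is also a score.

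The counts were fitted in edgeR 4.0.16 (R 4.3.3) with TMM scaling, a mean for each of the 19 groups and 39 residual degrees of freedom. The filter filterByExpr (count of 10, total of 15) kept 18872 genes and 99.7% of counts. P-values were adjusted by Benjamini-Hochberg over all tested genes, with calls at 0.05, and SE is the standard error of a log2 fold change. The fit was also run on simulated counts, with an outcome not given here. These held no difference in library makeup, so they could not test that limit. Alternatives were DESeq2 1.42.0, DESeq2 size factors, no filter, limma 3.58.1 on log2(value + 1) of the quantile normalized score, removal of each library's gene length trend, the libraries of 1 time alone, a replicate block and leaving out each library. The change from 45 to 60 min in N roots and the changes from time 0 in noN roots were added after seeing the data.

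The members were taken by their identifiers and not by measured values, but earlier results of these data were known when the members and lists were set. Named genes were the 6 members and, for each member called in the joint test, the 2 tested genes with the highest Pearson correlation over the 19 group means. Other genes of ammonium assimilation were not analysed here, since 0 of 44146 gene model IDs matched the RefSeq gene table of another assembly. Each group holds biological replicates per the labels' protocols, the labels name no batch, and no 2 replicates agreed within sampling noise (chi-square per gene of 2.15 to 15.4 over 60 pairs).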

Additional observations from a re-analysis of the deposited data

Results flagged for a closer look

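The effect of nitrogen differed between times in 5 of the 6 glutamine synthetase genes by the N by time interaction (edgeR), which spans the times at which the noN libraries differ in makeup. The adjusted p was 5.295e-14 for the plastid gene Zm00001d026501, 2.951e-10 for Zm00001d017958, 2.288e-08 for Zm00001d048050, 1.167e-04 for Zm00001d028260 and 0.005688 for Zm00001d033747. The course within N roots compares none of the means of those noN libraries, although it shares the scaling and the estimate of spread with them. It also passed in all 5, with an edgeR adjusted p of 6.135e-21, 4.121e-07, 6.721e-12, 2.768e-06 and 0.005158 in the same order. For Zm00001d017958 the sign of the effect differed between the periods, at 0.66 (SE 0.07) over 5 to 45 min and -0.71 (SE 0.09) over 60 to 120 min, and its part in the change of the noN libraries was not tested. A search for single libraries far from the rest of their group was possible only in noN at 120 min, the one group of 4, and found 0 in the 6 genes.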

How the results depend on the processing

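No result of a member changed sign under any alternative that was run while called in either fit. Of the results of single members, DESeq2 size factors in edgeR left all 192 on their side of the threshold. DESeq2 moved 5 past it. Removal of the gene length trend ended 3 calls, limma on the quantile normalized values ended 10 and added 3, no filter on low counts ended 2 and added 2, and the fit of 1 time alone ended 3 and added 3. Of the fits with 1 library left out, 56 ended a call and 21 added one.

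The counts of this paragraph stand without the share of all tested genes called under each alternative. The count of members called at 5 min, 2, was 1 with no filter and with that time alone, and 0 with the length trend removed and in limma. At 10 min it was 1 with that time alone against 2, and at 20 min 5 against 4. At 45 min it was 2 in limma against 3. At 60 min it was 5 in DESeq2 and with that time alone, and 4 in limma and with the replicate block, against 3. At 90 min it was 4 in limma and with that time alone against 5, where Zm00001d033747 was lost (limma adjusted p = 0.05584, edgeR adjusted p = 0.05512). At 120 min it was 6 in limma and with the replicate block against 5, where limma lacks replicate 4 of noN and the block fits it exactly. Averaged over 5 to 45 min it was 4 in limma against 5. The step from 45 to 60 min in noN had 1 call in limma against 2. Within N roots against 5 min, limma had 4 calls at 60 min against 5, and 3 at 90 min against 4. No filter ended the call for Zm00001d017958 at 60 min. Against time 0 in noN, 15 min had 2 calls and 3 in DESeq2 and in limma. There 20 min had 0 calls and 1 with no filter, with the replicate block and in DESeq2, while 45 min had 1 call and 0 with the length trend removed and in limma. With 1 library left out, the counts ran from 0 to 1 at 5 min, from 1 to 4 at 60 min, from 1 to 2 for N at 30 and at 45 min against 5 min, and from 2 to 4 for N at 60 min against 5 min, where the full fit had 5. They ran from 1 to 2 for noN over 0 to 45 min and for noN at 15 min against time 0, and from 0 to 1 for noN at 20, 30 and 45 min against time 0 and for noN over 60 to 120 min.

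Per kilobase, the plastid gene gave 0.409% of the family at time 0, 0.286% in noN at 120 min and 4.13% in N at 120 min, Zm00001d017958 gave 38.1% at time 0 and 44.9% in noN at 120 min, and Zm00001d028260 gave 62.6% in N at 120 min.

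Of the same-numbered N and noN libraries of equal time, 7 of 27 pairs correlated over 0.1, all at 5 to 45 min, in a range of -0.288 to 0.255. The main fit does not pair them. Pairs of unlike number were not compared, so whether the numbers pair the samples was not tested. The replicate block ended no call and added 4, namely Zm00001d028260 at 60 min (0.78, adjusted p = 0.04169) and at 20 min against time 0 in noN (-0.84, adjusted p = 0.03573), and Zm00001d051804 at 120 min (-0.76, adjusted p = 0.0222) and in the N by time interaction (adjusted p = 0.01262), all in edgeR. Replicate 4 of noN at 120 min alone carries its number, so the block fits that library exactly and in effect leaves it out. Without that library the main fit gave Zm00001d051804 -0.77 at 120 min (edgeR adjusted p = 0.02218) and an interaction with an edgeR adjusted p of 0.01292. The calls for Zm00001d051804 thus cannot be told apart from the loss of 1 library. Depth limits Zm00001d048050 most, with as few as 4 counts in a library.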
